A study of Arabidopsis thaliana with 16 samples.

Results

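The leaf transcriptome at 30% inhibition of photosynthesis was compared with that at the photosynthetic optimum, using 8 of the 16 Affymetrix arrays of the series. The members were chosen by their labels alone: 4 arrays from leaves taken when photosynthesis had dropped 30% below its peak, and 4 arrays from leaves taken at the peak. All leaves were fully expanded leaves of Arabidopsis thaliana, line Columbia, with no transgene or mutation named, from plants grown at 22 °C with a 10 h photoperiod, 350 µmol m-2 s-1 of light and 60% relative humidity. To reach them, plants were warmed in steps of 2 °C per 10 min, between 22 °C and 42 °C, with 20 to 30 min for photosynthesis to settle before sampling and 3 to 4 h for a whole curve. The remaining arrays, 4 from the baseline at the growth temperature and 4 from leaves at 20% inhibition, are given beside the comparison where they bear on it. The states were fixed from earlier gas exchange measurements, and the labels give no leaf temperature for any of them. The 30% state lay beyond the optimum on the curve, so that temperature, time spent in the heat and time of day cannot be told apart. The replicates came from randomly collected plants, and the p-values rest on how much those leaf samples varied.

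In heat, plant cells make heat shock proteins, chaperones that hold or refold other proteins that lose their shape. Small heat shock proteins bind unfolding proteins, and HSP70, HSP90 and their co-chaperones refold them. Carbon fixation is among the first steps of photosynthesis to decline in warm leaves, and Rubisco activase, which keeps the carbon-fixing enzyme active, is known to be sensitive to heat.

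The authors' signals are on a log2 scale, so a difference of 1 is a 2-fold change. Means are given ± SD over 4 arrays and changes ± SE from limma, and "rose" and "fell" are used of probe sets with a Benjamini-Hochberg adjusted p under 0.05 over all 22746 probe sets tested. Correlations between arrays ran from 0.995 to 0.996 within the optimum and from 0.994 to 0.997 within 30% inhibition, against 0.962 to 0.969 between the states. The 25S ribosomal RNA control on the array differed between the states: it read 6.19, 5.52, 5.91 and 6.31 at the optimum and 10.01, 9.76, 11.35 and 8.67 at 30% inhibition. Its difference of 3.97 had p = 0.0286 in an exact 2-sided permutation test, the smallest value that 70 assignments of 4 against 4 arrays can give, and 0.114 after adjustment over the 4 measures of array quality. The signal at the 3′ end minus that at the 5′ end, which tracks RNA integrity, differed between the states by −0.14 for GAPDH, 0.24 for actin and 0.01 for ubiquitin. The same permutation test gave p = 0.0857, 0.0571 and 0.771, with no adjusted p under 0.05. With 4 arrays per state this test can hardly pass after adjustment, so equal RNA integrity is not shown. Whether the 25S signal has a part in any change below was not tested, except where a value is given. A lower signal in whole leaves can come from fewer cells of a type or from less RNA per cell, and these cannot be told apart here.

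Of the 22746 probe sets, 9364 (41.2%) differed between 30% inhibition and the optimum. Of these, 4227 were higher (18.6% of those tested) and 5137 lower (22.6%). Counts of list members below are to be read beside these shares. Lists were drawn from the 13513 probe sets with 1 gene assigned, of which 18.6% were called higher and 19.3% lower. The rises reached further than the falls: 170 probe sets rose at least 4-fold (0.747%) and 59 fell at least 4-fold (0.259%), and at 8-fold the counts were 72 and 8. At 2-fold the sides were near even, with 564 higher (2.48%) and 621 lower (2.73%). Most calls were small: the median change of the higher ones was 0.40 and of the lower ones −0.49, against 0.02 over all probe sets. The median of all moved to 0.06 when each array was centred on its own median, and the higher share of the calls then went from 45.1% to 53.6%, so a majority of falls is not a firm reading. In 9097 probe sets (40.0%) the 4 arrays of one state lay wholly above or below those of the other. The 25S signal was itself higher on all 4 arrays at 30% inhibition than at the optimum. With it as a covariate, 7354 probe sets were called. The slope of that covariate comes from differences between arrays of the same state. These were widest at 20% inhibition, a state outside the comparison, where the signal read 12.99, 10.41, 5.25 and 12.88 (SD 3.62). Values given with the covariate below therefore lean on those arrays, and how far they do was not tested.

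**Figure D1:**
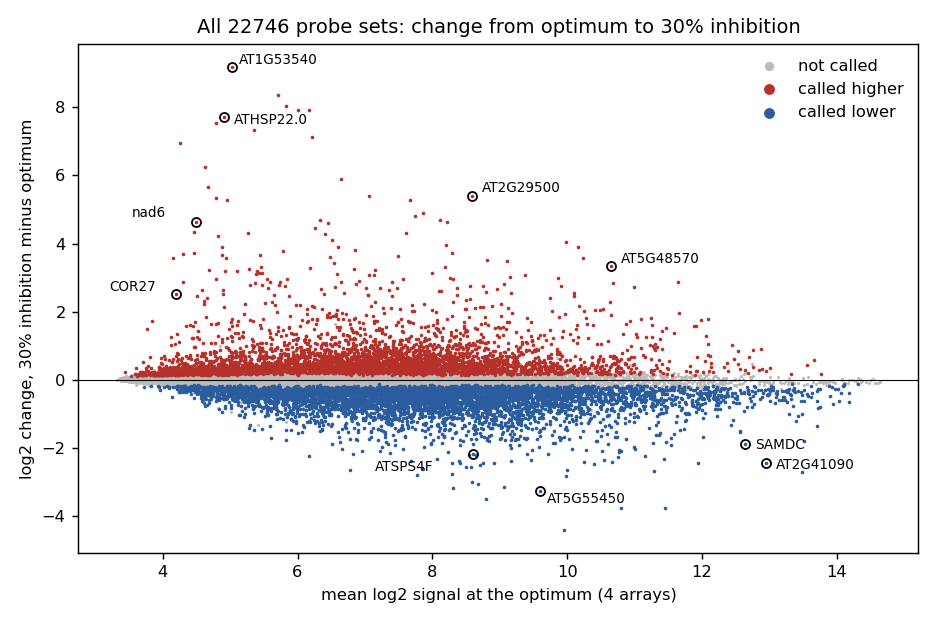
Each point is 1 of 22746 probe sets, with the mean log2 signal at the optimum on the horizontal axis and the log2 change to 30% inhibition on the vertical axis; red points rose, blue points fell and grey points were not called. Rises reached 9.18 and began mainly from low signals, while the named falls SAMDC and AT2G41090 began from signals above 12.

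Among probe sets with 1 gene assigned, the 3 largest rises were those of small heat shock proteins. Of 9 measured members of a list of 18, 8 rose, each at least 2-fold, and the list's median change was 5.41 against 0.02 over all probe sets. The cytosolic small heat shock protein AT1G53540 read 5.97, 4.85, 4.76 and 4.52 on the optimum arrays and 14.12, 14.20, 14.25 and 14.24 on the 30% arrays. All 4 arrays at 30% inhibition were far above all 4 at the optimum. The change of 9.18 ± 0.23 (adjusted p = 1.2e-14) was the largest rise of any probe set. In fold terms this was 578, an approximate value because the optimum signal was near the lowest on the arrays. ATHSP22.0 (AT4G10250), the member of the endoplasmic reticulum, read 4.93, 4.98, 4.90 and 4.83 at the optimum and 12.55, 12.52, 12.92 and 12.45 at 30% inhibition. Its optimum level was no higher than the baseline level of 4.99 ± 0.18, and the change past the peak was 7.70 ± 0.11 (adjusted p = 7.5e-18).

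Members for other compartments followed with smaller changes. AT1G52560, an organelle-type small heat shock protein, went from 4.31, 4.38, 4.16 and 4.22 to 11.25, 11.04, 11.71 and 10.85, a change of 6.95 ± 0.16. The peroxisomal member AT5G37670 rose by 5.90 ± 0.13 and the mitochondrial member AT5G51440 by 5.28 ± 0.16. The cytosolic AT2G29500 was already at 8.26, 8.69, 8.99 and 8.42 at the optimum, against a baseline of 4.94 ± 0.13, and stood at 14.02, 14.02, 14.02 and 13.93 at 30% inhibition. Its arrays did not overlap between the states, and the change was 5.41 ± 0.11. AT1G54050 and AT2G19310, with optimum signals above 10, rose by 2.86 ± 0.13 and 2.29 ± 0.12. AT4G21870 was the exception, with 7.29, 7.31, 7.32 and 7.21 at the optimum and 7.77, 7.57, 7.32 and 7.69 at 30% inhibition (0.30 ± 0.19, adjusted p = 0.23). It passed without replicate 3 at 20% inhibition (adjusted p = 0.012), with only the 8 arrays compared (adjusted p = 0.021) and with the 25S covariate, where its change was 0.85.

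**Figure D2:**
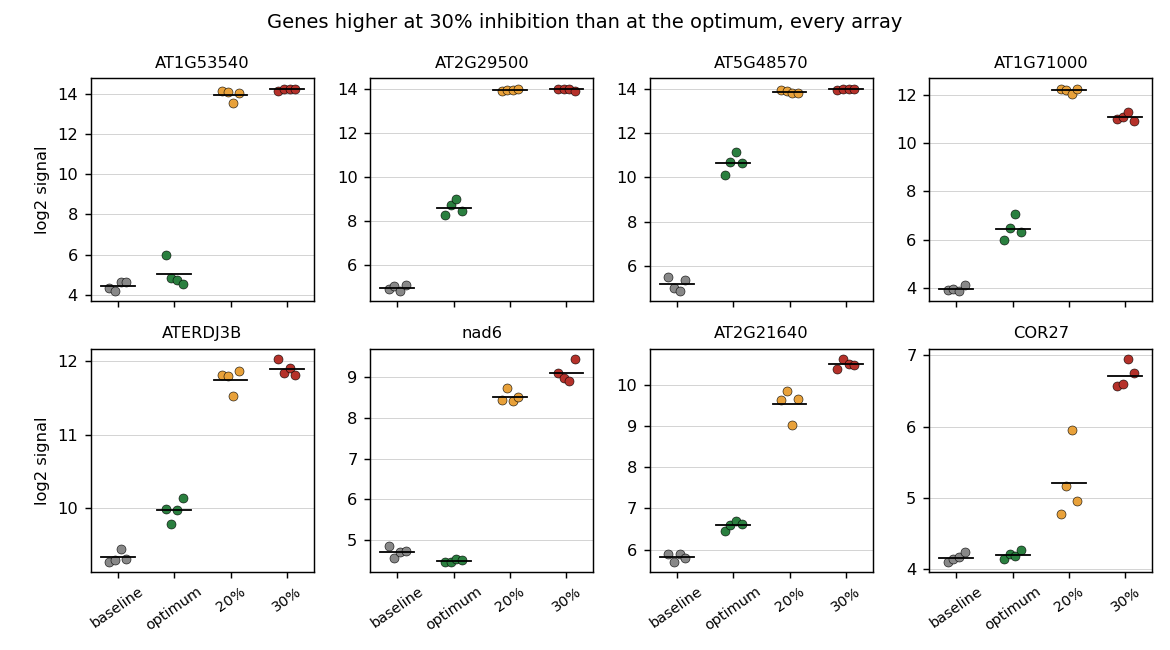
Log2 signal of 8 genes on all 16 arrays, 1 point per array and a bar at the mean of each state (baseline, optimum, 20% and 30% inhibition). AT1G53540 was near 5 at the optimum and above 14 at 30% inhibition, AT5G48570 had made most of its rise before the peak, and AT1G71000 was lower at 30% than at 20% inhibition.

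Most measured HSP70s and co-chaperones rose too. Of 10 measured members of a list of 47 HSP70, HSP90 and HSP100 chaperones and co-chaperones, none of them an HSP90, 8 rose, 6 of them at least 2-fold, with a median change of 1.48. Hop3 (AT4G12400), which links HSP70 to HSP90, read 6.97, 7.83, 8.32 and 7.85 at the optimum and 12.54, 12.58, 12.64 and 12.48 at 30% inhibition, a change of 4.82 ± 0.19. Its relatives moved less: Hop2 (AT1G62740) rose by 1.45 ± 0.10 and Hop1 (AT1G12270) by 0.27 ± 0.08. The call for Hop1 ended without replicate 3 at the optimum or replicate 1 at 30% inhibition (0.22 each), and the arrays of Hop1 overlapped between the states. AT5G48570, an FKBP-type isomerase that works with HSP90, read 10.11, 10.68, 11.13 and 10.67 at the optimum and 13.93, 13.99, 13.99 and 14.00 at 30% inhibition. The change of 3.33 ± 0.16 (adjusted p = 7.2e-11) came on top of 5.46 ± 0.16 between baseline and optimum.

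Among the HSP70s and HSP40-type partners, Fes1A (AT3G09350), a protector of HSP70, rose by 3.01 ± 0.14, and the DnaJ-type AT2G20560 by 2.54 ± 0.12. Hsp70-2 (AT5G02490) rose by 1.51 ± 0.14. The cytosolic HSP70 AT3G09440 rose by 0.66 ± 0.09, from 12.69 to 13.35 on average, at signals near the top of the arrays. The DnaJ-type AT4G28480 (0.22 ± 0.11, adjusted p = 0.10) and the p23-type co-chaperone AT4G02450 (−0.07 ± 0.07, adjusted p = 0.42) did not pass. AT4G28480 passed with only the 8 arrays compared (adjusted p = 0.042), with repeated quantile normalisation (0.29), with array weights and without replicate 3 at 20% inhibition (adjusted p = 0.032). HSA32 (AT4G21320), which prolongs acquired heat tolerance in seedlings, read 6.58, 6.20, 6.38 and 6.48 at the optimum and 10.63, 10.62, 10.97 and 10.56 at 30% inhibition. It was the only measured member of a list of 26 heat shock factors and partners, and its change was 4.28 ± 0.10.

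Of 7 measured genes on a list for protein folding in the endoplasmic reticulum, 6 rose, 3 of them at least 2-fold, and the median change was 0.94. The list includes bZIP transcription factors, which are counted again with their family below, and its median is the change of BZIP28. ATERDJ3B (AT3G62600), a DnaJ partner of the HSP70 of that compartment, read 9.99, 9.79, 9.98 and 10.14 at the optimum and 12.03, 11.84, 11.90 and 11.81 at 30% inhibition. All arrays at 30% inhibition were higher, by 1.92 ± 0.08 (adjusted p = 1.9e-11). The calcium-binding chaperone CRT1b (AT1G09210, calreticulin) rose by 1.50 ± 0.08 and the calnexin AT5G07340 by 1.196 ± 0.08. BZIP28 (AT3G10800) and BZIP17 (AT2G40950), membrane-bound transcription factors that switch on endoplasmic reticulum chaperones, rose by 0.94 ± 0.06 and 0.85 ± 0.09. Of 5 measured peptidyl-prolyl isomerase genes, 4 rose. One of them, SQN (AT2G15790), a cyclophilin partner of HSP90, rose by 1.84 ± 0.15 on a first probe set and differed by 0.05 ± 0.05 (adjusted p = 0.49) on a second whose signal was 3.78 at the optimum.

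Several strong rises lay outside the chaperone lists. AT1G72660, a developmentally regulated GTP-binding protein, went from 4.63 to 10.89 on average, a change of 6.26 ± 0.11. AT5G25450, which encodes a small subunit of mitochondrial complex III, read 7.67, 7.82, 7.96 and 7.97 at the optimum and 12.72, 12.73, 12.83 and 12.70 at 30% inhibition. It rose by 4.89 ± 0.11 with tight values in both states. The DnaJ-type AT1G71000 rose by 4.61 ± 0.16. Among bright transcripts, AT1G67360, a lipid droplet protein, rose by 2.77 ± 0.10, and AT5G12110, a subunit of translation elongation factor 1B, by 2.72 ± 0.15. The autophagy gene APG8A (AT4G21980), whose product coats the membranes that enclose cell material for breakdown, rose by 1.203 ± 0.11, and its relative ATG8H (AT3G06420) by 0.85 ± 0.14. Of 5 measured autophagy genes these 2 rose and 1 fell.

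Most measured probe sets of a set of mitochondrion-encoded genes rose. The set held symbols starting with nad, ccb, cox, matR or orfX, and other genes of that genome were not analysed. Of 23 probe sets for 16 mitochondrion-encoded genes, 21 rose, 15 of them at least 2-fold, with a median change of 2.27. nad6, a subunit of respiratory complex I, read 4.47, 4.46, 4.53 and 4.50 at the optimum and 9.11, 8.99, 8.92 and 9.45 at 30% inhibition. No array of the optimum approached those of the inhibited leaves, and the change was 4.62 ± 0.10 (adjusted p = 2.2e-15). The complex I subunits nad4L and nad5 rose by 4.35 ± 0.11 and 3.91 ± 0.13, and the second nad5 probe set by 3.24 ± 0.08. cox2, a subunit of cytochrome oxidase, had fallen by 0.47 between baseline and optimum and then read 5.44, 5.42, 5.35 and 5.41 at the optimum and 8.46, 8.68, 8.73 and 8.49 at 30% inhibition. Probe sets of the same gene disagreed: 7 probe sets for nad1 ran from 0.15 to 3.71, and nad2 differed by −0.07 ± 0.10 (adjusted p = 0.63).

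The 25S control, like this group, was higher at 30% inhibition than at the optimum. Between 20% and 30% inhibition the 25S mean went from 10.38 to 9.95, while that of the 23 probe sets went from 7.26 to 7.53. The mean of the 23 probe sets was 5.49, 5.41, 5.51 and 5.52 at the optimum, 7.19, 7.33, 7.16 and 7.34 at 20% inhibition and 7.56, 7.42, 7.54 and 7.59 at 30% inhibition. The 25S signal at 20% inhibition was 12.99, 10.41, 5.25 and 12.88. Replicate 3 of that state had a 25S signal of 5.25, below all 4 optimum arrays, and a mitochondrial mean of 7.16. With the 25S signal as a covariate 18 of the 23 probe sets rose, with a median of 2.31. Loci whose identifiers begin with AT2G076 or AT2G077 lie in a part of chromosome 2 that holds a nuclear copy of mitochondrial DNA. Of 37 such loci measured, 23 rose, led by AT2G07722, whose change was 5.35 ± 0.11. Such loci share sequence with the mitochondrial genome, so their probes can read either source.

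**Figure D3:**
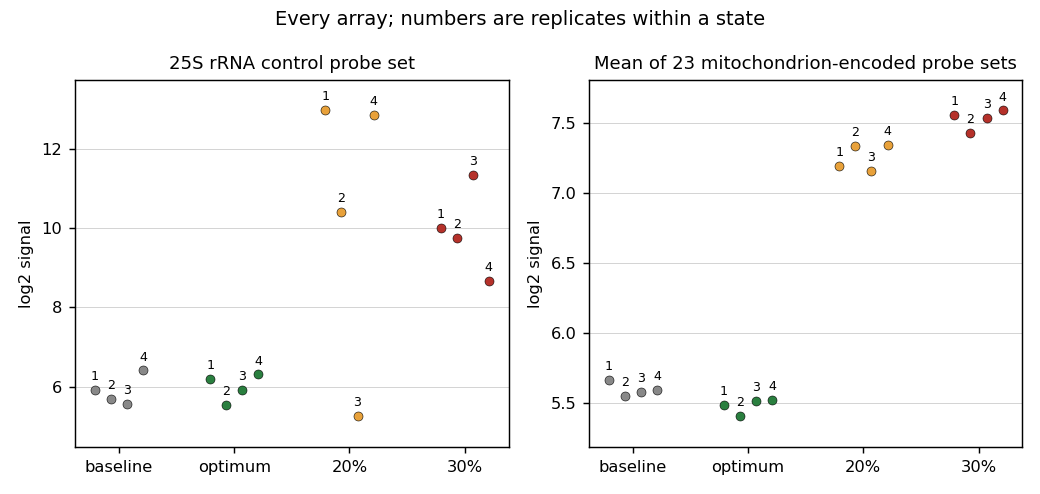
Log2 signal of the 25S rRNA control (left) and the mean of 23 mitochondrion-encoded probe sets (right) on each of the 16 arrays, by state, with replicate numbers. Replicate 3 at 20% inhibition had a 25S signal of 5.25 and a mitochondrial mean of 7.16.

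A nuclear gene for a mitochondrial protein, AT2G21640, used as a marker of oxidative stress, read 6.46, 6.60, 6.69 and 6.62 at the optimum and 10.38, 10.62, 10.50 and 10.48 at 30% inhibition. It rose by 3.90 ± 0.13 (adjusted p = 5.1e-13). At 20% inhibition it stood at 9.53 ± 0.36.

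Of 4 measured Calvin-Benson genes, which fix and reduce carbon, 2 fell (50%) and none rose. SBPASE (AT3G55800), which regenerates the carbon acceptor of the cycle, read 13.44, 13.27, 13.29 and 13.06 at the optimum and 12.69, 12.60, 12.40 and 12.73 at 30% inhibition. Its arrays did not overlap, and it fell by 0.66 on the log2 scale, a 1.58-fold decrease (SE 0.08, adjusted p = 5e-06). Phosphoribulokinase PRK (AT1G32060) changed by −0.50 ± 0.08. Rubisco activase RCA (AT2G39730) read 14.60, 14.54, 14.54 and 14.55 at the optimum and 14.50, 14.46, 14.42 and 14.47 at 30% inhibition. Although every array at 30% inhibition was lower, the difference was −0.10 ± 0.04 (adjusted p = 0.093), with signals at the top of the arrays' range. The phosphoglycerate kinase AT1G56190 differed by −0.18 ± 0.09 (adjusted p = 0.14).

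All 4 measured photorespiratory genes fell, with a median of −0.44. LrgB (AT1G32080), the plastid transporter of glycolate and glycerate, changed by −0.72 ± 0.09 and AT1G11860, the T protein of glycine decarboxylase, by −0.55 ± 0.09. The peroxisomal hydroxypyruvate reductase HPR (AT1G68010) changed by −0.34 ± 0.07 and the glycerate kinase AT1G80380 by −0.30 ± 0.07. With the 25S covariate the calls for these last 2 genes ended, at −0.21 for HPR and −0.22 for AT1G80380.

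Of 3 measured antenna genes only LHCB4.3 (AT2G40100), a minor antenna protein of photosystem II, fell (−0.80 ± 0.13, adjusted p = 0.00011), while LHCB4.1 (AT5G01530) and LHCB4.2 (AT3G08940) differed by −0.10 ± 0.06 and −0.04 ± 0.05. Of 5 measured nuclear genes of photosystems and electron transport, ATPC1 (AT4G04640), a subunit of the chloroplast ATP synthase, and PSBY (AT1G67740) of photosystem II fell, with changes of −0.26 ± 0.05 and −0.18 ± 0.06. The call for PSBY ended with centring (−0.14), with the 25S covariate (−0.09), and without replicate 1 at the optimum or replicate 2 at 30% inhibition (−0.16 each). In chlorophyll synthesis 3 of 4 measured genes fell (75%). CHLI2 (AT5G45930), a subunit of magnesium chelatase, changed by −0.71 ± 0.11, the methyltransferase CHLM (AT4G25080) by −0.48 ± 0.09 and the early-step enzyme GSA1 (AT5G63570) by −0.18 ± 0.06. The change of CHLM was −0.32 with the 25S covariate. The call for GSA1 ended with centring (−0.14), repeated quantile normalisation (−0.15), the 25S covariate (−0.21), and without replicate 1 at the optimum (−0.14), replicate 3 (−0.17) or replicate 4 (−0.18) at 30% inhibition.

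Of 69 measured chloroplast-encoded genes none rose and 17 fell. That share of 24.6% stands beside 22.6% over all probe sets and 19.3% over those with 1 gene assigned. They are given below in groups formed from the start of their symbols after the values had been seen. Of 15 genes for chloroplast ribosomal proteins 10 fell, with a median of −0.42, among them rpl36 (−0.70 ± 0.11), rpl22 (−0.65 ± 0.07) and rps19 (−0.47 ± 0.08). Of 4 genes for the chloroplast's own RNA polymerase 2 fell. Of 20 photosystem genes 1 fell, psbZ (−0.25 ± 0.09), and their median was 0.01. The call for psbZ ended with centring (−0.21), with the 25S covariate (−0.15), and without replicate 2 or 3 at the optimum (−0.22 each) or replicate 3 at 30% inhibition (−0.19). Of 10 genes for the NADH dehydrogenase-like complex 3 fell, with ndhH the most changed (−0.90 ± 0.25, adjusted p = 0.009; −0.71 and not called with the 25S covariate). The difference between these groups was not tested.

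**Figure D4:**
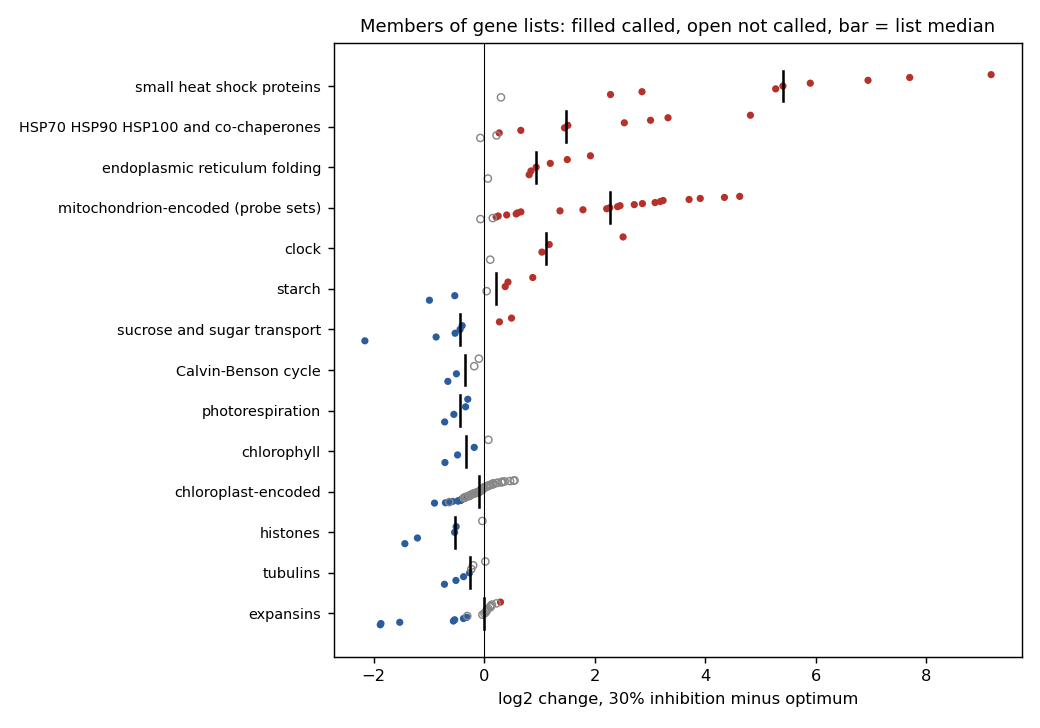
Log2 change from optimum to 30% inhibition for each measured member of 14 gene lists; filled points were called, open points were not, and the black bar is the list's median. Chaperone lists and the mitochondrion-encoded probe sets lay to the right, photosynthetic lists slightly to the left, with medians from 5.41 for small heat shock proteins to −0.54 for histones.

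Starch and sugar genes moved both ways. PWD (AT5G26570), which phosphorylates starch as it is broken down, read 9.52, 9.50, 9.69 and 9.58 at the optimum and 10.46, 10.36, 10.39 and 10.59 at 30% inhibition, higher in all arrays by 0.88 ± 0.06. The branching enzyme SBE2.2 (AT5G03650) rose by 0.43 ± 0.08 and DPE1 (AT5G64860), which reworks short glucans, by 0.38 ± 0.07. APL3 (AT4G39210) and APL4 (AT2G21590), large subunits of the enzyme that makes the starch precursor ADP-glucose, changed by −0.99 ± 0.10 and −0.53 ± 0.08. The amylase AMY1 (AT4G25000) differed by 0.04 ± 0.09 (adjusted p = 0.75). In all, 3 of 6 measured starch genes rose and 2 fell.

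In sucrose and sugar transport 2 of 7 measured genes rose and 5 fell (28.6% and 71.4%). The sucrose-phosphate synthase ATSPS4F (AT4G10120) read 8.53, 8.61, 8.67 and 8.61 at the optimum and 6.91, 6.18, 6.03 and 6.64 at 30% inhibition. It changed by −2.16 ± 0.17 (adjusted p = 2.1e-08), a 4.47-fold decrease, with a wider spread among the arrays at 30% inhibition. The sugar carriers SWEET2 (AT3G14770) and SWEET4 (AT3G28007) changed by −0.87 ± 0.13 and −0.53 ± 0.07. The sugar carriers SWEET16 (AT3G16690) and SWEET17 (AT4G15920) rose by 0.49 ± 0.17 and 0.27 ± 0.08. The call for SWEET16 ended without replicate 2, 3 or 4 at the optimum or replicate 3 or 4 at 30% inhibition (0.42 to 0.49), and its change was 0.99 with the 25S covariate. The call for SWEET17 ended with that covariate, at 0.18.

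Both glutathione reductases, which keep glutathione in its reduced form, fell. GR1 (AT3G24170), the cytosolic glutathione reductase, read 9.96, 9.76, 9.78 and 9.83 at the optimum and 8.66, 8.79, 8.86 and 8.40 at 30% inhibition. The states did not overlap and the change was −1.16 ± 0.08 (adjusted p = 7.3e-09). The plastid enzyme GR (AT3G54660) changed by −0.99 ± 0.09. These were the 2 members that fell of 5 measured antioxidant genes, and none rose. Of 10 measured thioredoxin-like genes 2 rose and 4 fell (20% and 40%). The mitochondrial thioredoxin TO2 (AT1G31020) changed by −0.63 ± 0.09 and the chloroplast reductase NTRC (AT2G41680) by −0.41 ± 0.11.

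Of 4 measured clock genes 3 rose, each at least 2-fold. COR27 (AT5G42900), a repressor that acts in the clock and in light and cold responses, read 4.14, 4.21, 4.18 and 4.27 at the optimum and 6.57, 6.59, 6.94 and 6.75 at 30% inhibition. It rose by 2.51 ± 0.17 (adjusted p = 4.7e-09). Its relative AT4G33980 (COR28) rose by 1.04 ± 0.14 from an equally low signal. GI (AT1G22770), an evening gene of the clock, read 8.70, 8.55, 8.79 and 8.75 at the optimum and 9.87, 9.88, 9.84 and 9.91 at 30% inhibition, 1.18 ± 0.07 higher. The clock factor AT5G52660 (RVE6) differed by 0.11 ± 0.06 (adjusted p = 0.18).

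The dehydration-responsive genes were split. COR47 (AT1G20440), a dehydrin, and COR15B (AT2G42530), a chloroplast protectant, rose by 0.89 ± 0.12 and 0.64 ± 0.10. LTI30 (AT3G50970), another dehydrin, read 8.94, 8.56, 8.12 and 8.86 at the optimum and 7.24, 6.31, 7.59 and 7.02 at 30% inhibition. It changed by −1.58 ± 0.31 (adjusted p = 0.00052). Its baseline level was 6.46 ± 0.29, from which the 30% level differed by 0.58 (adjusted p = 0.15). Of 4 measured genes on that list 2 rose and 1 fell.

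The largest fall among probe sets with 1 gene assigned was that of a lipid transfer protein gene. The lipid transfer protein gene AT5G55450 read 9.62, 9.57, 9.29 and 9.92 at the optimum and 6.53, 6.50, 6.29 and 6.02 at 30% inhibition. All arrays at 30% inhibition were below all arrays at the optimum, with a change of −3.26 ± 0.26 (9.60-fold, adjusted p = 2.4e-08). The leucine-rich repeat receptor kinase AT1G35710 went from 8.15, 7.95, 8.26 and 8.89 to 5.20, 5.10, 5.05 and 5.16, a change of −3.18 ± 0.24. The methyltransferase AT1G55450 changed by −3.15 ± 0.30. Larger falls, down to −4.39, lay in probe sets to which the annotation assigns no gene, and of the 100 largest falls 36 had 1 gene assigned, against 49 of the 100 largest rises.

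Smaller falls were measured in the genes that follow. The receptor kinase AT5G59670 changed by −2.63 ± 0.15 and ended at 4.14, close to the array floor, which limits how large a fall can be seen. The TIR-type resistance gene AT3G04210 changed by −2.55 ± 0.41 (−1.28 with the 25S covariate) and the lectin gene AT5G03350 by −2.45 ± 0.17. AT2G41090, a calmodulin-like calcium-binding protein, read 12.97, 12.98, 12.91 and 12.91 at the optimum and 10.77, 10.37, 10.43 and 10.50 at 30% inhibition. All arrays at 30% inhibition were lower, with a change of −2.43 ± 0.09 (adjusted p = 4.1e-12).

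Other bright transcripts fell as well. SAMDC (AT3G02470), which supplies the aminopropyl donor for polyamines, read 12.72, 12.51, 12.67 and 12.65 at the optimum and 10.81, 10.71, 10.62 and 10.83 at 30% inhibition. All arrays at 30% inhibition were lower, with a change of −1.89 ± 0.08. AT1G73600, a phosphoethanolamine methyltransferase of phosphocholine synthesis, changed by −2.32 ± 0.08. AT2G25450, a dioxygenase of glucosinolate side chains, changed by −1.67 ± 0.12, and the GDSL-type lipase genes AT4G28780 and AT1G29660 by −2.36 ± 0.10 and −1.20 ± 0.08. AT5G52650, which encodes a protein of the small cytosolic ribosomal subunit, changed by −1.23 ± 0.12.

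**Figure D5:**
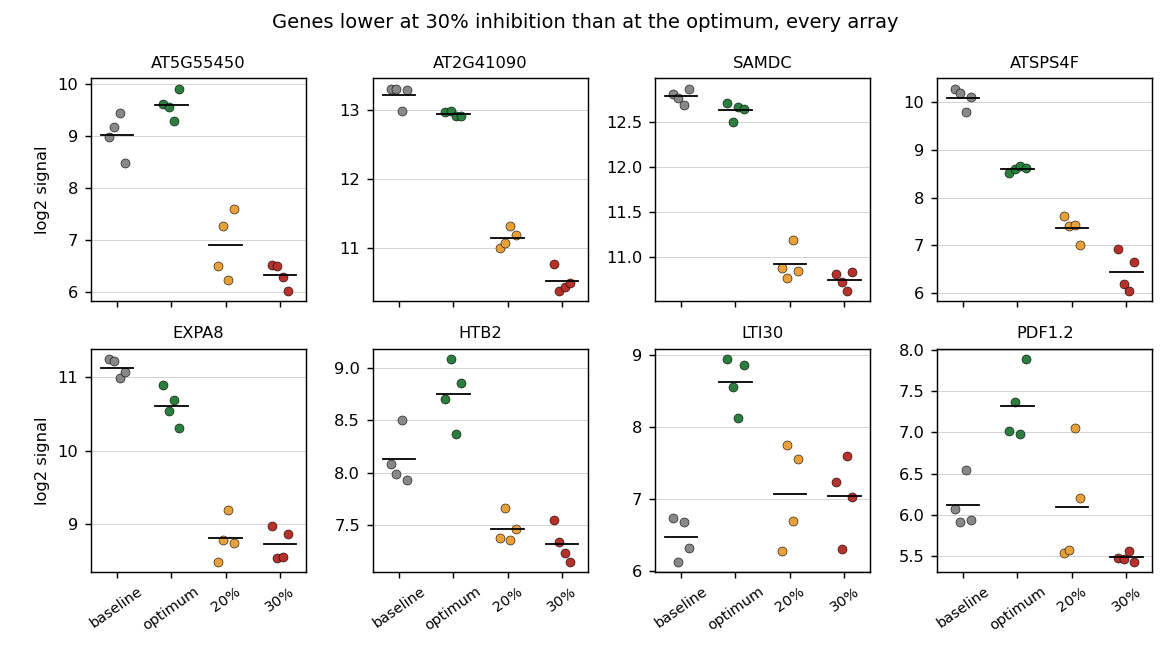
Log2 signal of 8 genes on all 16 arrays, 1 point per array and a bar at the mean of each state; the vertical axes differ between panels. ATSPS4F was lower at each successive state, SAMDC was at a like level in both inhibited states, and LTI30 and PDF1.2 were higher at the optimum than in the other 3 states on average.

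Of 19 measured expansins, proteins that loosen the cell wall, 7 fell and 1 rose, and the list's median was 0.003. The share that fell, 36.8%, stands beside 22.6% over all probe sets and 19.3% over those with 1 gene assigned. EXPA8 (AT2G40610) read 10.90, 10.54, 10.69 and 10.31 at the optimum and 8.97, 8.53, 8.55 and 8.86 at 30% inhibition, a change of −1.88 ± 0.15. EXPB1 (AT2G20750) and EXPA16 (AT3G55500) changed by −1.87 ± 0.16 and −1.53 ± 0.12. Of 5 measured histone genes 4 fell (80%). The histone H2B gene HTB2 (AT5G22880) read 8.71, 9.09, 8.37 and 8.85 at the optimum and 7.55, 7.33, 7.23 and 7.15 at 30% inhibition, without overlap (−1.44 ± 0.14, adjusted p = 4.7e-07). The linker histones HIS1-3 (AT2G18050) and HON4 (AT3G18035) changed by −1.21 ± 0.18 and −0.54 ± 0.09. Of 7 measured tubulins 4 fell (57.1%), TUB7 (AT2G29550) the most, with a change of −0.72 ± 0.15. The class III peroxidase PRXR1 (AT4G21960), at 13.48 on average at the optimum, changed by −1.004 ± 0.09.

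Enzyme families were mixed. Of 43 measured UDP-glycosyltransferases 12 rose and 8 fell, with UGT73B1 (AT4G34138) 0.92 ± 0.13 higher and the cytokinin glucosyltransferase UGT76C2 (AT5G05860) changed by −0.89 ± 0.12. Those shares, 27.9% and 18.6%, stand against 18.6% and 22.6% over all probe sets, and 18.6% and 19.3% over those with 1 gene assigned. UGT73B1 began at 6.35 at the optimum. Several other rises were small and began near the lowest signals, such as UGT84B1 (0.22, from 4.27) and UGT76E12 (0.35, from 4.15). Of 24 cytochrome P450 genes, most of them CYP71B members, 3 rose and 5 fell (12.5% and 20.8%), CYP71B23 (AT3G26210) with a change of −1.42 ± 0.11. Of 12 glutathione S-transferases 2 rose and 4 fell (16.7% and 33.3%). Of 22 bZIP transcription factors 9 rose and 2 fell (40.9% and 9.1%), bZIP44 (AT1G75390) rising by 1.48 ± 0.13 from 6.25 at the optimum. Some bZIP rises began near the lowest signals, such as AT2G13150 (0.15, from 3.98) and EEL (0.51, from 4.14). All 3 measured RNA helicases rose, by 0.54 to 0.66, among them the nucleolar PRH75 (AT5G62190). The iron-response factors bHLH121 (AT3G19860) and bHLH115 (AT1G51070) went opposite ways, by 0.50 ± 0.12 (0.80 with the 25S covariate) and −0.43 ± 0.07.

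The 20% state lay between the optimum and the 30% state on the curve, and 1629 probe sets (7.16%) differed between 20% and 30% inhibition. Of these 953 were higher at 30% (4.19% of those tested) and 676 lower (2.97%); with each array centred on its median the split was 755 and 872, so its direction depends on the scaling. Without replicate 3 at 20% inhibition, which stood apart in its 25S signal, the count was 2153, and with only the 8 arrays of these states it was 915. Of the 564 probe sets that rose at least 2-fold from the optimum, 126 were higher still at 30% than at 20% inhibition and 93 were lower. Of the 621 that fell at least 2-fold, 104 were lower still and 12 were higher. Both comparisons use the same 30% arrays, which favours continued changes in these counts.

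Some genes changed further between the inhibited states. AT2G21640 was 0.96 ± 0.13 higher at 30% than at 20% inhibition (adjusted p = 0.00018). COR27 stood at 5.21 ± 0.52 at 20% inhibition and 6.71 ± 0.17 at 30%, a further rise of 1.51 ± 0.17. nad6 was 0.59 ± 0.10 and AT2G07722 0.61 ± 0.11 higher. Downward, ATSPS4F was at 7.36 ± 0.26 at 20% inhibition and 6.44 ± 0.41 at 30% (−0.92 ± 0.17, adjusted p = 0.0025), and AT2G41090 changed by a further −0.62 ± 0.09.

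Several chaperones stood lower at 30% than at 20% inhibition while remaining far above the optimum. The DnaJ-type AT1G71000 read 5.98, 6.46, 7.07 and 6.30 at the optimum, had a mean of 12.18 ± 0.10 at 20% inhibition, and read 10.998, 11.08, 11.29 and 10.90 at 30% inhibition. Its step from 20% to 30% was −1.11 ± 0.16 (adjusted p = 0.00035). AT2G20560 (−0.69 ± 0.12), the peroxisomal AT5G37670 (−0.67 ± 0.13), AT1G52560 (−0.62 ± 0.16) and Fes1A (−0.58 ± 0.14) also fell in that step. AT1G53540 (0.26 ± 0.23, adjusted p = 0.58), ATHSP22.0 (0.19 ± 0.11, adjusted p = 0.36) and AT5G48570 (0.11 ± 0.16, adjusted p = 0.78) did not differ past the threshold. The U-box ubiquitin ligase PUB19 (AT1G60190), which acts in drought signalling, was at 7.75 ± 0.29 at the optimum, 7.84 ± 0.23 at 20% inhibition and 6.90 ± 0.30 at 30% inhibition. Its fall of −0.94 ± 0.15 (adjusted p = 0.00098) lay between the inhibited states.

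Some genes turned at the optimum. Between baseline and optimum 3770 probe sets (16.6%) differed. The genes named here were picked for having a called change in each direction, and the steps before and after the peak share the optimum arrays with opposite signs, so a chance high there favours such a pattern. PDF1.2 (AT5G44420), a defensin gene of jasmonate and ethylene signalling, read 7.02, 7.37, 6.98 and 7.88 at the optimum against a baseline of 6.12 ± 0.29, and 5.48, 5.47, 5.57 and 5.43 at 30% inhibition. Its change past the peak was −1.83 ± 0.27. The ankyrin repeat gene AT2G24600 went from 7.47 ± 0.15 at baseline to 8.80 ± 0.71 at the optimum and 7.03 ± 0.11 at 30% inhibition. In the opposite sense, the translation initiation factor gene AT1G36730 fell by 0.20 before the peak and rose by 1.33 ± 0.06 after it, and AT5G43450, of the family of 2-oxoglutarate-dependent oxygenases, stood at 7.21 ± 0.05 at baseline, 6.86 ± 0.14 at the optimum and 8.26 ± 0.16 at 30% inhibition.

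Markers of leaf cell types were few among the named probe sets. RCA, abundant in mesophyll, was at 14.6 at the optimum and 14.5 at 30% inhibition. Of 2 measured guard cell markers, AT1G22690 (GC1) changed by −1.31 ± 0.18 and the stomatal lineage factor FMA (AT3G24140) by 0.01 ± 0.09. The single measured pollen marker, AT5G45880, stayed near 5 in both states. Markers of epidermis, phloem and root were not analysed here.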

How the data were processed

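Transcripts of leaf RNA were measured on 16 Affymetrix arrays, 4 in each of 4 states. The authors deposited log2 signals for each probe set. RMA and limma are named in the submitters' processing notes, with versions not given in the sources used here. RMA corrects background, equalises arrays by quantiles and summarises probes. Changes of transcripts near the top of the range can be compressed, and changes that start near the lowest signal (3.25) are approximate. No further scaling or filter was applied. Of 22810 probe sets 64 were controls.

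The annotation given with the array, used with gene names of the RefSeq assembly TAIR10.1, assigned 13513 of the 22746 tested probe sets to 1 gene, 503 to several and 8730 to none; only the first were named. A gene list's measured members are those named probe sets, and other members are not analysed here. Different probe sets of a gene were kept apart.

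The 4 state means were estimated from all 16 arrays in limma 3.58.1 under R 4.3.3 with lmFit and eBayes (degrees of freedom 12 residual, 4.21 prior), and p-values were adjusted by Benjamini-Hochberg over all tested probe sets of a comparison. The model was tested on 22746 simulated probe sets with the real means and spreads and independent errors, 50 of them changed at each size. It called 41 of 50 changes of 0.5 and all of 50 at 1, 2 and 4 on the log2 scale, with 8 false calls among the unchanged probe sets. Far fewer probe sets were changed there than the 9364 called in the data, so that number of false calls does not carry over to them. The precision of a value is limited by the number of arrays. No 2 arrays of a compared state had identical values at more than 6 probe sets, so none was a copy of another. That count cannot show separate plants, and each array was counted as a replicate by its label. Array quality measures were compared by exact 2-sided permutation of 8 arrays.

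Named genes were the 15 largest rises and 15 largest falls, the 6 largest of each with a mean signal of at least 11, up to 3 rising and 3 falling members of each list of at least 3 measured genes, 5 of each that changed further from 20% to 30% inhibition, 5 of each that turned at the optimum, and all measured members of the chaperone, Calvin-Benson, photorespiration, starch and clock lists; some are given only in counts. Another 20 probe sets, of organelle genes, cell markers, LHCB4.1, LHCB4.2 and a second SQN probe set, were named after their values were seen. The comparison, lists and rule were chosen with earlier results of these data known. Alternatives were robust and intensity-trended eBayes priors, a fit on the 8 compared arrays, a filter on the dimmest 33.3% of probe sets, centring on array medians, a second quantile normalisation, array weights, the 25S control as a covariate, blocks by replicate number, and fits without single arrays. Leaving out arrays of the states not compared was added after seeing the data.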

Additional observations from a re-analysis of the deposited data

Results flagged for a closer look

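Single arrays stood apart from the other 3 of their state in 14 of the 256 groups of 4 arrays examined for the named probe sets, and chance alone gives about 1 in 20. They were found with Dixon's ratio, the gap between an end array and its neighbour over the range of the group, at its 95% critical value. In leaves at 30% inhibition the low arrays were replicate 4 for AT2G29500 (13.93, the others 14.02 to 14.02), replicate 2 for nad5 (8.60, the others 8.84 to 8.86), replicate 2 for 1 of the nad1 probe sets (7.78, the others 8.28 to 8.37) and replicate 3 for psbZ (11.91, the others 12.14 to 12.17), and the high array was replicate 3 for AT1G54050 (13.67, the others 13.47 to 13.49). In leaves at the optimum the low arrays were replicate 2 for bHLH121 (7.77) and AT2G25450 (11.86), replicate 4 for CHLM (11.80), SWEET2 (6.41) and the second nad5 probe set (4.50), and replicate 1 for CYP71B23 (4.90). The high arrays there were replicate 1 for GSA1 (11, the others 10.83 to 10.85) and ndhH (9.98, the others 9.42 to 9.51), and replicate 4 for another nad1 probe set (5.12, the others 4.78 to 4.79).

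The 25S ribosomal RNA control, a probe set outside the comparison, averaged 9.95 at 30% inhibition and 5.98 at the optimum. Its 4 values in each state did not overlap.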

How the results depend on the processing

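Of 128 named probe sets, 110 kept their call and direction in every alternative run for them, 26 in all except that the filter on dim probe sets covered 120 of them, and 114 did so when the 25S covariate is set aside. The count of called probe sets, 9364, ran from 7354 (25S covariate) to 9973 (array weights), and that of changes of at least 2-fold, 1185, from 1088 to 1217. The count between the inhibited states, 1629, was 915 with only the 8 arrays compared and otherwise ran from 1178 to 2153. The count between baseline and optimum, 3770, ran from 2710 to 5214. The cause of these moves was not tested.

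Same-numbered arrays did not deviate together: the correlations of their deviations from the state means were −0.02, 0.05, −0.28 and −0.33, which gave no sign of pairing by number. Arrays of different numbers ran from −0.16 to 0.34. The highest were optimum replicate 3 with 30% replicate 4 (0.34) and optimum replicate 4 with 30% replicate 3 (0.31). The source of these shared deviations was not tested. With the replicate number as a fixed block 9173 probe sets were called, 1184 of them at least 2-fold, 1440 between the inhibited states and 3568 between baseline and optimum. As a random effect it gave 9201, 1184, 1491 and 3623, at a consensus correlation of −0.03, and neither block changed a call among the named probe sets. Paired sign-flip tests of the array measures gave the same differences, with adjusted p = 0.33 for the 25S control. Its unadjusted p of 0.125 is the smallest that 4 pairs can give in that test, so it could not pass.

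Directions that turned were of values that were not called. With the 25S covariate AT4G28480 was −0.037, AMY1 −0.064, FMA −0.050 and LHCB4.2 0.019, and LHCB4.2 was 0.0046 with centring. With single arrays left out AMY1 ran from −0.022 to 0.106, FMA from −0.059 to 0.065, nad2 from −0.138 to 0.0027, AT5G45880 from −0.0072 to 0.123 and the 3′ minus 5′ difference of ubiquitin from −0.014 to 0.042.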
